A study of Rattus norvegicus with 42 samples.

Results

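Transcription start sites of the soleus muscle were compared between 3 rats unloaded for 7 days (D7, animals U1, U2 and U3) and 3 control rats (animals U6, U7 and U8). The starts were measured by CAGE (cap analysis of gene expression), which sequences the 5′ ends of capped RNAs, so that each tag marks where one transcript began. All tag clusters of the deposited table outside the mitochondrial genome were taken, that is 9969 of 9971, and are called TSS peaks here; 6 of the 42 libraries of the series entered the comparison. The rats were mature Wistar animals without any genetic change. Unloaded rats hung by the tail so that the hindlimbs bore no weight, and control rats were active. Their age in weeks is not given in the sources used here. The same animals also gave the EDL (extensor digitorum longus), and further groups of 3 rats were taken after 1 and 3 days of unloading (D1 and D3) or after 1, 3 and 7 days of recovery that followed 7 days of unloading (R1, R3 and R7). One library was made for each kind of muscle of a rat, so the 3 libraries of a group are 3 animals.

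The soleus is a slow, postural hindlimb muscle that is active whenever the animal stands. It consists mostly of slow type I fibres with oxidative metabolism, while the EDL is a fast muscle that lifts the toes. When the hindlimbs are unloaded the soleus loses mass faster than the EDL, and its fibres shift towards fast types. A gene can have several start sites, and a CAGE peak reports one of them, so a lower peak means that fewer capped RNAs starting there were counted, which does not give the RNA of the whole gene. The deposited table does not pair peaks with gene names, and a genome or annotation of Rnor_6.0, the assembly of all positions below, was not used here. Peaks are therefore given by position and by a letter, and the identity of the muscle could not be checked against the genes of slow and fast fibres. In whole muscle, fewer cells of one type and less RNA per cell cannot be told apart.

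The control libraries held 16652474 (U6), 11577496 (U7) and 7799116 (U8) tags, and the D7 libraries 6207803 (U1), 10407753 (U2) and 4868926 (U3). Tags outside the deposited peaks took 8.69%, 27.6% and 7.38% of the tags in U6, U7 and U8 and 18.4%, 9.92% and 22.4% in U1, U2 and U3, against 4.10% to 26.9% in the other 36 libraries. This share did not separate the groups (14.6% ± 11.3 in controls, 16.9% ± 6.35 at D7, SD, n = 3 each; two-sided exact permutation p = 0.8, the smallest possible being 0.1). All control libraries were sequenced in lane 1 and all D7 soleus libraries in lane 3, so lane and unloading cannot be told apart within these 6 libraries. Levels below are in CPM, that is tags scaled to a common library size after TMM normalization over the 42 libraries.

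After 7 days of unloading few start sites passed edgeR's quasi-likelihood test, which does not show that the others stayed unchanged. Of 9844 peaks tested by edgeR's quasi-likelihood test, 12 (0.122%) were called, meaning a Benjamini-Hochberg adjusted p under 0.05 together with a fitted change of more than 2.38-fold in either direction, of which 7 (0.0711%) rose and 5 (0.0508%) fell. With no limit on the fold change 13 peaks passed the adjusted p, and 1087 (11.04%) had an unadjusted p under 0.05, 555 of them higher and 532 lower at D7. The median log2 fold change over all tested peaks was −0.03 and its median size 0.30, with 5% of the peaks below −1.11 and 5% above 0.84. In 1997 peaks (20.3%) the 3 D7 libraries lay all on one side of the 3 controls, 1124 above (11.4%) and 873 below (8.87%). A fitted change of more than 2.38-fold was found in 651 peaks, and the groups did not overlap in 357 of these and overlapped in 294. DESeq2 on the same libraries called 134 peaks (1.35%), 74 higher and 60 lower, and these included the 12 peaks called by edgeR.

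**Figure D1:**
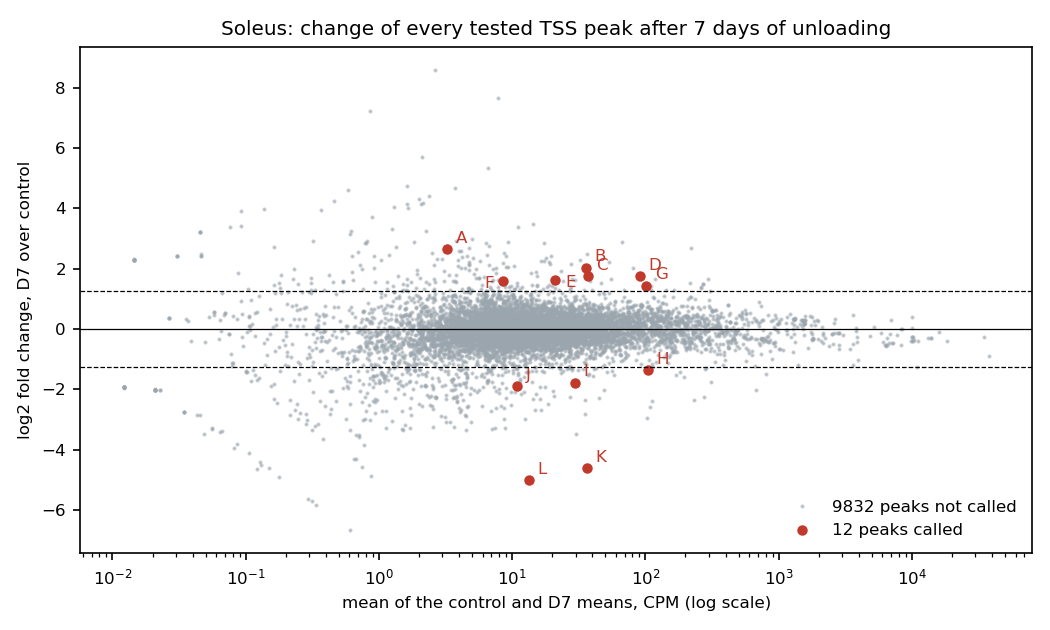
Each point is one of the 9844 tested TSS peaks, with its mean level in CPM on a log axis and its log2 fold change of D7 over control in soleus. The 12 called peaks, A to L, are red, and dashed lines mark the 2.38-fold limit in either direction. Peaks K and L lie lowest among the called ones, at −4.62 and −5.01.

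Among the 7 peaks that rose, the steepest change was in peak A, chr2:196300916-196301224 on the minus strand, which was almost silent in control soleus. It counted 0.949, 0.749 and 0.948 CPM in U6, U7 and U8 and 6.04, 4.22 and 6.62 CPM in U1, U2 and U3, a 6.38-fold higher mean (log2 fold change 2.64 ± 0.50 SE, adjusted p = 0.0393). It rests on 6 to 13 tags in a control library and 24 to 48 in a D7 library. Peak B, chr10:58972585-58973125 on the minus strand, went from 14.5, 11.2 and 16.1 CPM to 51.3, 76.6 and 44.2 CPM (2.04 ± 0.34, adjusted p = 0.0200). Peak C, chr7:114992609-114992828 on the plus strand, went from 18.7, 18.5 and 13.5 CPM to 81.3, 48.5 and 42.8 CPM (1.76 ± 0.30, adjusted p = 0.0218). In both peaks every D7 library was above every control, and the 3 D7 animals differed among themselves more than the controls did.

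The other rises were more even between animals. Peak D, chrX:15098834-15098944 on the plus strand, had 35.4, 49.6 and 39.6 CPM in the controls and 125, 169 and 129 CPM at D7 (1.75 ± 0.32, adjusted p = 0.0365). Peak G, chr16:20672318-20672501 on the plus strand, had 54.9, 49.9 and 59.6 CPM against 168, 141 and 136 CPM (1.43 ± 0.22, adjusted p = 0.0165). These were the highest of the rising peaks in level, with means of 141 ± 24.4 and 148 ± 17.4 CPM (SD, n = 3) at D7. Peak E, chr10:48927479-48927624 on the plus strand, had 9.12, 13.2 and 8.40 CPM against 36.4, 33.0 and 25.1 CPM (1.61 ± 0.31, adjusted p = 0.0393). Peak F, chr4:62380589-62380892 on the plus strand, had 4.45, 3.995 and 4.33 CPM against 13.2, 14.6 and 10.5 CPM (1.58 ± 0.27, adjusted p = 0.0218). No library of one group reached the range of the other in any of the 7 peaks, a state shared by 11.4% of all tested peaks in this direction.

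The 5 peaks that fell included the 2 largest changes among the 12. Peak K, chr15:4069082-4069615 on the plus strand, dropped from 57.5, 45.8 and 107 CPM to 2.93, 3.78 and 1.38 CPM, a mean 26-fold lower (log2 fold change −4.62 ± 0.74 SE, adjusted p = 0.0165), and held 367 to 792 tags in a control library but 5 to 43 in a D7 library. Peak L, chr1:50446338-50446654 on the plus strand, dropped from 5.98, 24.7 and 47.5 CPM to 0.183, 0.790 and 1.66 CPM (−5.01 ± 0.86, adjusted p = 0.0218). The controls of peak L differed widely among themselves, and its D7 values rest on 1, 9 and 6 tags. Peak I, chr2:96668137-96668295 on the minus strand, had 46.8, 38.6 and 51.5 CPM in the controls and 14.8, 15.02 and 9.66 CPM at D7 (−1.78 ± 0.24), with the smallest adjusted p of all peaks, 0.00617. Peak J, chr16:2142254-2142574 on the minus strand, had 17.0, 13.1 and 21.7 CPM against 3.48, 5.97 and 4.14 CPM (−1.90 ± 0.35, adjusted p = 0.0365). Peak H, chr16:73683559-73684154 on the minus strand, was the highest of the falling peaks, with 134, 128 and 190 CPM against 59.3, 70.3 and 46.9 CPM (−1.36 ± 0.22, adjusted p = 0.0165). As with the rises, the groups did not overlap in any of the 5, as in 8.87% of all tested peaks in this direction.

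**Figure D2:**
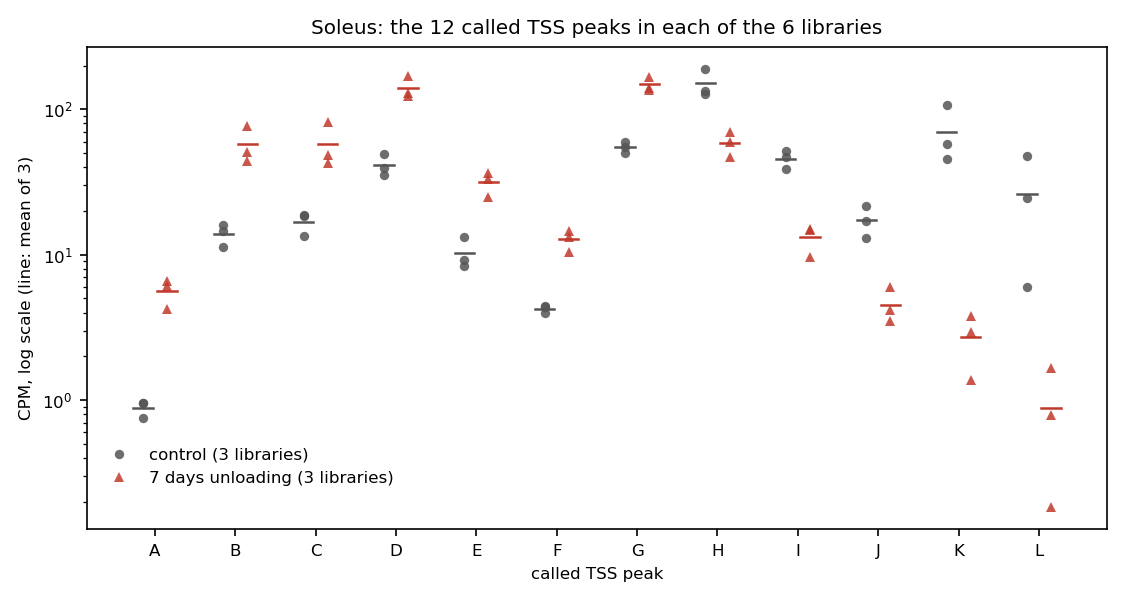
The level in CPM (log axis) of the 12 called peaks in each control library (grey circles) and each D7 library (red triangles) of soleus, with a line at the mean of 3. Peaks A to G are higher and H to L lower at D7 without overlap, and the controls of peak L run from 5.98 to 47.5 CPM.

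Most of these calls were lost when 1 animal was left out, with fold changes of about the same size. Of the 12 calls, 3 were also made without U6, 3 without U7, 0 without U8, 1 without U1, 4 without U2 and 5 without U3, and 2 further peaks were called without U2. In each of these fits 11 or 12 of the 12 peaks kept their direction with a change of more than 2.38-fold, the log2 fold change running from 1.47 to 1.69 in peak F, from 1.43 to 1.93 in peak C and from −4.96 to −4.18 in peak K. Peak I was called in 5 of these 6 fits, peaks C, G, H and K in 2, peaks B, F and L in 1 and peaks A, D, E and J in 0, and without U8 the test left 805 peaks at an unadjusted p under 0.05. With the tag totals of the libraries in place of TMM, which moved the median of all tested peaks to 0.13, no peak was called and the smallest adjusted p was 0.0587, with 828 peaks at an unadjusted p under 0.05. The log2 fold changes were then 2.75 in peak A, −4.47 in peak K and −4.88 in peak L. A fit of all 42 libraries called 15 peaks, 10 of them among the 12, and with the sequencing lane as a block, which EDL and other phases estimate, it called 0, with 702 peaks at an unadjusted p under 0.05. With that block the log2 fold changes were 3.13 ± 1.06 in peak A, −5.26 ± 1.34 in peak K and −0.95 ± 0.52 in peak H, and both there and with tag totals 11 of the 12 peaks, all but H, stayed past the 2.38-fold limit.

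For 8 further peaks the groups did not overlap and the unadjusted p was among the smallest, but they were not called; they are given as values. In peak M, chr16:68968102-68968374 on the minus strand, the controls had 33.3, 36.5 and 27.6 CPM and D7 71.2, 59.5 and 91.9 CPM, and the adjusted p of 0.0365 passed while the log2 fold change of 1.18 ± 0.22 did not reach the 2.38-fold limit. The other 7 peaks, N to T, had an adjusted p of 0.0653. Peak N, chr1:167197491-167197599 on the plus strand, had 144, 107 and 175 CPM against 231, 377 and 290 CPM, and peak O, chr3:151223967-151224216 on the minus strand, had 81.5, 74.4 and 80.5 CPM against 112, 135 and 145 CPM. Among the 5 with lower values at D7, peak P, chr13:36155957-36156218 on the minus strand, was the highest in level, with 504, 475 and 618 CPM against 290, 244 and 247 CPM. Peak T, chr2:53859469-53859863 on the plus strand, had 291, 201 and 262 CPM against 70.3, 123 and 69.3 CPM (−1.53 ± 0.32). Peaks Q, R and S, chr2:187288422-187288741 on the plus strand, chr11:61625413-61625643 on the minus strand and chr7:62971774-62972176 on the minus strand, had log2 fold changes of −0.87 ± 0.18, −1.33 ± 0.28 and −1.30 ± 0.27.

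The called peaks followed different courses over the other phases, whose values share the control libraries and are given as a description. Peak K was already down at D1, at 3.66, 5.38 and 6.62 CPM, stayed between 1.24 and 15 CPM at D3, and stood at 41.3 to 55.7 CPM at R1, 74.3 to 157 CPM at R3 and 119 to 460 CPM at R7. Its R7 libraries thus lay above the control range of 45.8 to 107 CPM. Peak L had 6.46 to 9.81 CPM at D1, 0.211 to 3.01 CPM at R1 and 25.7 to 49.4 CPM at R7. Peak J had 6.37 to 10.1 CPM at D1 and was lowest at R1, with 1.34 to 2.65 CPM, before 13.7 to 23.9 CPM at R7. Peak I had values around the control range at D1 (36.1 to 59.6 CPM), lower ones at D3 (22.0 to 31.5 CPM) and the lowest at D7. At R1 it had 30.4 to 42.7 CPM, against 38.6 to 51.5 CPM in the controls.

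Some of the rises were early and others late. Peak A was highest at D1, with 9.14 to 11.1 CPM, and had 1.67 to 4.65 CPM at R1 and 0.382 to 1.22 CPM at R7. Peak F was likewise highest at D1, with 12.4 to 18.3 CPM, and had 4.21 to 5.85 CPM at R1. Peak G had 52.1 to 64.8 CPM at D1, close to its controls, then 106 to 141 CPM at D3 and 35.3 to 63.1 CPM at R1. Peak C had 28.8 to 35.7 CPM at D1 and 18.5 to 38.5 CPM at D3, both under its D7 range of 42.8 to 81.3 CPM, and 14.8 to 18.1 CPM at R1. Peak E had 52.5 to 62.5 CPM at D3 and 25.1 to 36.4 CPM at D7. It was high again at R1, with 48.1 to 63.5 CPM, and had 12.8 to 19.3 CPM at R7. Peak D had 71.1 to 127 CPM at D1 and 56.0 to 73.4 CPM at R1, above its control range in every library of both phases. One D1 library (U24) was sequenced in lane 1, like the controls, and one D3 library (U11) in lane 3, like D7. U24 lay outside the control range on the side of D7 in 10 of the 12 called peaks, all but I and L, and U11 in 12 of 12. Over all tested peaks U24 lay above the control range in 32.1% and below it in 33.5%, and U11 in 30.2% and 30.8%. The called peaks were chosen with these controls, and the part of the lane in their changes was not tested.

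**Figure D3:**
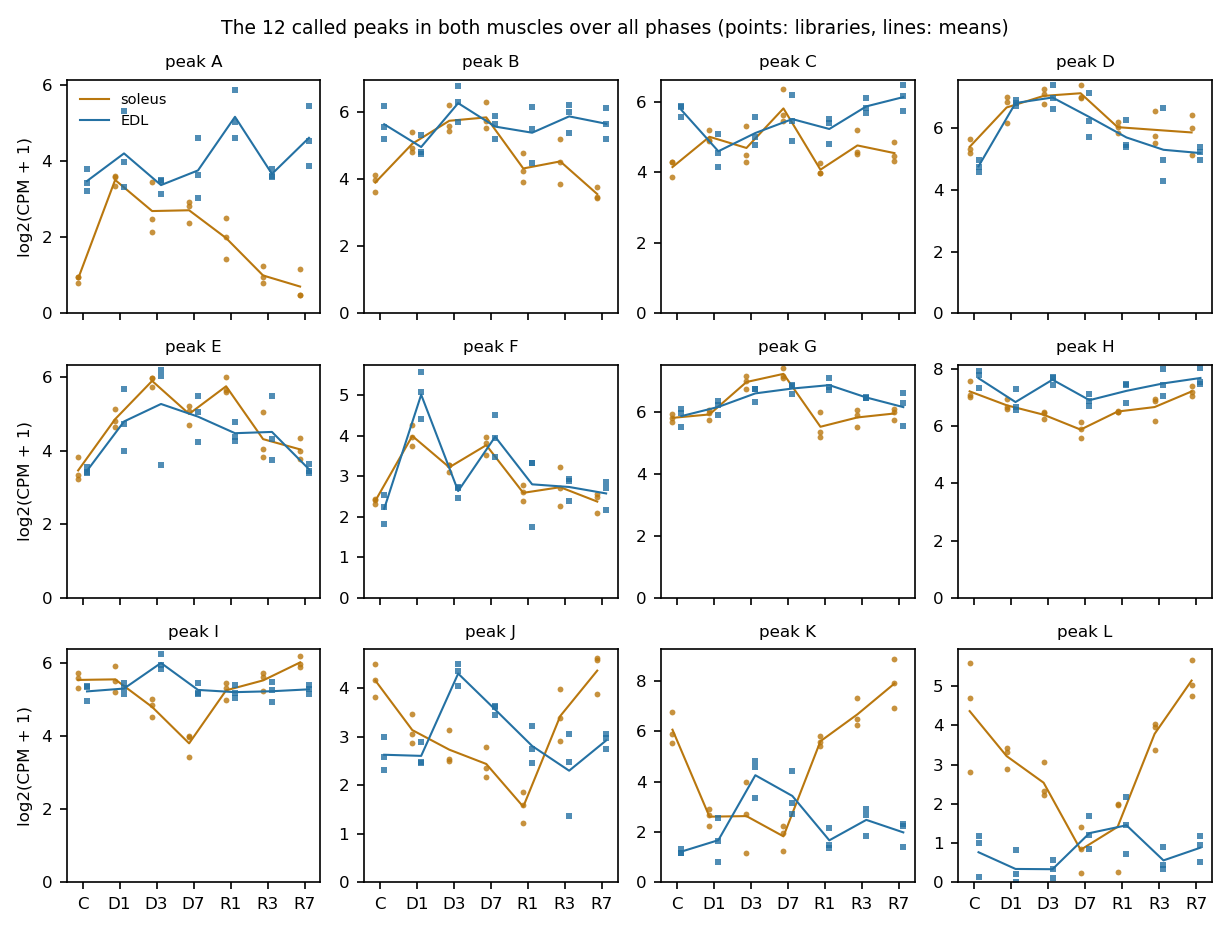
Level of the 12 called peaks as log2(CPM + 1) in every library of soleus (brown circles) and EDL (blue squares) over control (C), unloading (D1, D3, D7) and recovery (R1, R3, R7), with lines through the means of 3 libraries. Peaks H to L are lower in soleus at D7 than in control and higher again at R7. Peaks J and K in EDL are higher at D3 and D7 than in control.

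The EDL of the same rats was compared in the same way. Its control libraries were sequenced in lane 1, and its D7 libraries in lane 3 (U1 and U2) and lane 6 (U3). Lane and unloading thus cannot be told apart in these EDL libraries either. Since the lanes at D7 differ between the muscles, an effect of lane need not cancel in the difference between them. Peak F rose in EDL as well, from 4.85, 2.51 and 3.72 CPM to 21.8, 10.1 and 14.5 CPM (log2 fold change 1.97 ± 0.41, adjusted p = 0.0234). These levels rest on 48, 6 and 15 tags in the controls and 156, 23 and 213 tags at D7. Peaks D and E had similar fold changes in both muscles, 1.75 ± 0.32 and 1.61 ± 0.31 in soleus against 1.70 ± 0.47 and 1.63 ± 0.56 in EDL, although the EDL values did not pass the test (adjusted p = 0.0830 and 0.190). Peak G had 67.1, 44.7 and 61.3 CPM in control EDL and 114, 93.9 and 112 CPM at D7 (0.84 ± 0.25, adjusted p = 0.121). Peak H had 241, 161 and 220 CPM against 105, 139 and 117 CPM (−0.83 ± 0.29, adjusted p = 0.195), and in both peaks the EDL groups did not overlap. Over all peaks tested in EDL every D7 library lay above every control in 12.8% and below in 8.01%. Peak J, which fell in soleus, had 6.97, 5.02 and 3.97 CPM against 9.92, 11.4 and 11.2 CPM in EDL (0.95 ± 0.36, adjusted p = 0.250). Peak K went in the opposite direction in EDL and rose from 1.52, 1.254 and 1.24 CPM to 20.7, 7.90 and 5.51 CPM (3.01 ± 0.63, adjusted p = 0.0238), so that at D7 its level was higher in EDL than in soleus. In EDL, 97 of 9341 tested peaks (1.04%) were called between D7 and control, and peaks F and K were the 2 shared with the soleus calls. The EDL count was not tried under other settings, so its size is not compared with the soleus count.

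Whether the change differed between the muscles was tested by an interaction term over all 42 libraries. By this test 75 of 9944 peaks (0.754%) were called, and 6 of the 12 peaks were among them. The 12 were chosen by their soleus change, which is part of this difference, so their share is in part set by that choice. Peak K had the largest difference of the 6 (soleus minus EDL −7.66 ± 0.99 on the log2 scale, adjusted p = 7.35e-05), followed by peak L (−6.28 ± 1.249, adjusted p = 0.00953), which stood at 0.101 to 2.24 CPM in the 6 EDL libraries before and after unloading. These EDL levels of peak L rest on 1 to 16 tags, too few for the peak to be tested in EDL alone, so its EDL change and the size of its difference are poorly known. In peak K the control EDL libraries held 3 to 15 tags. Peaks J and I differed by −2.88 ± 0.51 and −1.81 ± 0.30 (adjusted p = 0.00328 and 0.00163); the EDL change of peak I was −0.02 ± 0.21. Peaks B and C differed by 2.15 ± 0.53 and 1.93 ± 0.45 (adjusted p = 0.0463 and 0.0272). In control EDL both stood at 35.1 to 70.9 and 46.8 to 58.1 CPM, and the D7 soleus ranges of 44.2 to 76.6 and 42.8 to 81.3 CPM overlapped these. For peaks A, D, E, F, G and H the difference did not pass (adjusted p = 0.219 to 1.00), which does not show equal changes. With the animal as a block, since each rat gave both muscles, 116 peaks were called in place of 75, and the same 6 were called. Leaving out 1 library gave 29 to 90 calls, and fewer than 50 without the EDL libraries U6 (29), U7 (48), U8 (37), U1 (47) or U2 (48) or the soleus libraries U6 (49) or U8 (46).

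**Figure D4:**
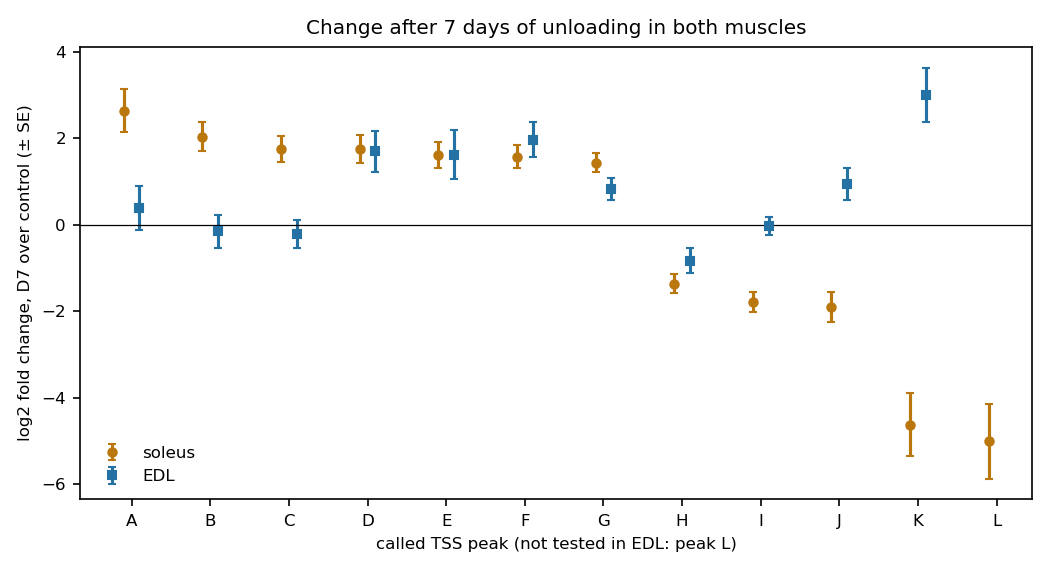
Log2 fold change of D7 over control with its SE for the 12 called peaks in soleus (brown circles) and EDL (blue squares); peak L was not tested in EDL. Peaks D, E and F lie together in both muscles, while peak K stands at −4.62 in soleus and at 3.01 in EDL.

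Among all 75 peaks with a different change, 60 moved lower in soleus relative to EDL (0.603% of all tested peaks) and 15 moved higher (0.151%). Of the 58 of the former that were tested in both muscles, 52 were lower in soleus and higher in EDL. Their median log2 fold changes were −1.05 in soleus and 2.26 in EDL. Of these 58, 3 were called in soleus on its own and 28 in EDL, against 0.122% and 1.04% of all tested peaks. The 15 higher ones all had opposite signs, with medians of 0.74 and −1.17. Both sets were chosen by the soleus change minus the EDL change. Opposite signs, and shares of calls in a single muscle above those of all tested peaks, are in part set by that choice. The 5 peaks outside the called 12 with the smallest adjusted p, picked for naming after their values were seen, show the levels involved. The peak at chr1:261281619-261281935 on the plus strand had 969, 879 and 969 CPM in control soleus and 323, 462 and 420 CPM at D7, and in EDL 23.3, 15.5 and 9.18 CPM before and 219, 265 and 142 CPM after unloading (difference −4.91 ± 0.75, adjusted p = 0.000922). The peak at chrX:106774783-106775086 on the plus strand had 502, 451 and 503 against 164, 145 and 117 CPM in soleus, and 62.4, 48.9 and 43.4 against 370, 240 and 123 CPM in EDL (−4.01 ± 0.67, adjusted p = 0.00163). In both peaks the levels of the 2 muscles lay closer together at D7 than in the controls. The peaks at chr17:19056765-19056962 and chr5:159967736-159968618, both on the plus strand, differed by −7.12 ± 1.18 and −3.45 ± 0.58, and the one at chr9:81968587-81969019 on the plus strand by 2.96 ± 0.49.

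The changes were then described over more peaks. Peaks higher in 1 muscle were taken from the R7 libraries, which are in neither group of the comparison. Of 9944 peaks 1683 (16.9%) were called between the muscles at R7, 967 higher in soleus (9.72%) and 716 higher in EDL (7.20%). In soleus at D7 against control, the soleus-high peaks had a median log2 fold change of −0.27, against −0.03 for all tested peaks (−0.60 in a fit with the lane as a block and −0.12 with tag totals); 655 of the 967 were lower and 312 higher. Their D7 libraries lay below all controls in 186 (19.2%) and above them in 60 (6.205%), against 8.87% and 11.4% of all peaks. The 620 tested EDL-high peaks had a median of 0.10 (−0.26 with the lane as a block, 0.27 with tag totals and 0.0029 without U8), with 346 higher and 274 lower, and with 95 above (15.3%) and 47 below (7.58%) all controls. Among the soleus-high and EDL-high peaks that passed the filter in EDL, the median changes in EDL were 0.84 and −0.56. Over all peaks tested in both muscles the median in EDL was 0.02. Peaks low in EDL could pass its filter through phases in which they were higher, so the sizes in the 2 muscles are not compared. With the sets taken from the R3 libraries the soleus medians were −0.16 and 0.02.

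Per library, the mean log2(CPM + 1) over the soleus-high peaks was 3.43, 3.43 and 3.64 in control soleus and 3.28, 3.20 and 3.29 at D7. The mean over the EDL-high peaks was 2.67, 2.67 and 2.39 in control soleus and 2.78, 2.597 and 2.499 at D7, so that the groups overlapped. In soleus at D1 and D3 the soleus-high means were 3.25 ± 0.07 and 3.27 ± 0.09 (SD, n = 3), close to D7, so this lower level was not particular to D7. The EDL-high means were 2.70 ± 0.31 and 2.59 ± 0.29 there. At R1 the soleus-high mean was 3.98 ± 0.03 and the EDL-high mean 2.02 ± 0.10 (SD, n = 3), higher and lower than in control soleus. At R7, which chose the sets, they were 4.08 ± 0.13 and 2.21 ± 0.22 in soleus, against 3.50 ± 0.12 and 2.58 ± 0.16 in control. The sets thus come from recovering muscle and may differ from sets chosen in control rats. Of the 12 called peaks, J, K and L, which fell, were among the soleus-high peaks (3 of 967, against 0.0508% of all tested peaks called lower). A, B and C, which rose, were among the EDL-high ones (3 of 620 tested, against 0.0711% of all called higher). Of the 60 peaks that moved lower in soleus relative to EDL, 57 (95%) were soleus-high peaks. That is 5.89% of the soleus-high peaks, against 0.603% of all tested peaks. Of the 15 that moved higher, 13 (86.7%) were EDL-high peaks, 1.82% of the EDL-high peaks against 0.151%. Peaks near the floor in 1 muscle have little room to fall there, so these shares are not a test.

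**Figure D5:**
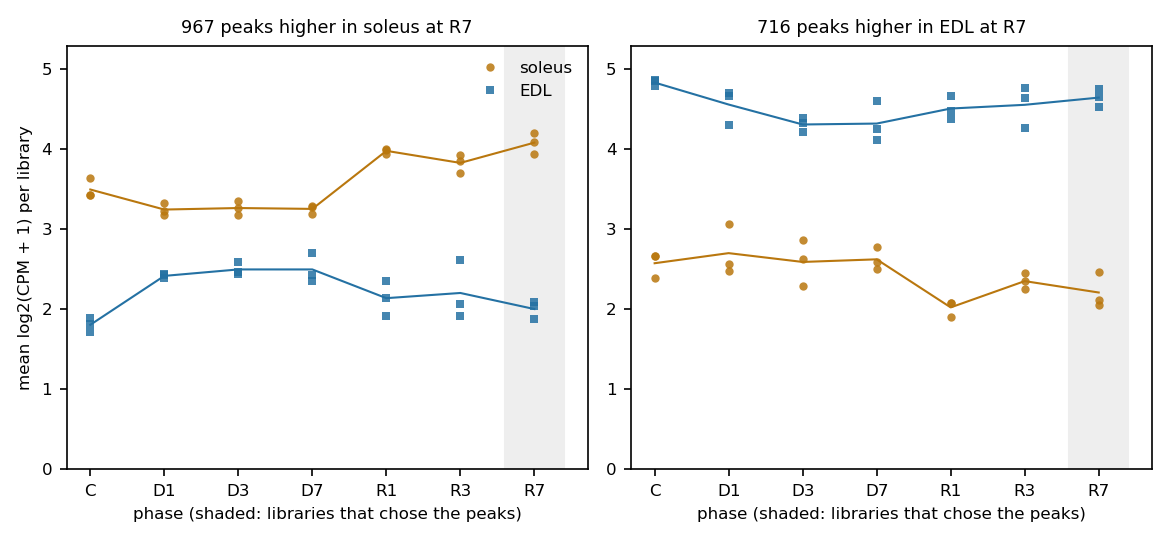
Mean log2(CPM + 1) per library over the 967 peaks higher in soleus at R7 (left) and the 716 higher in EDL at R7 (right), in soleus (brown circles) and EDL (blue squares), with lines through the group means; the libraries that chose the peaks are shaded. In soleus the left mean is 3.50 ± 0.12 in control and 3.26 ± 0.05 at D7, while EDL rises from 1.81 ± 0.09 to 2.498 ± 0.19.

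The share of tags in the highest peaks was also compared. The 20 peaks with the highest mean over the 21 soleus libraries took 33.4%, 33.2% and 30.7% of the tags in non-mitochondrial peaks in U6, U7 and U8 and 27.5%, 25.4% and 29.1% in U1, U2 and U3. The means were 32.5% ± 1.52 and 27.3% ± 1.86 (SD, n = 3), without overlap, and the two-sided exact permutation p of 0.1 is the smallest that 3 against 3 animals allow. None of the 20 was called, against 0.122% of all tested peaks, and in 4 of them every D7 library lay below every control, against 8.87%, while the groups overlapped in the other 16. All of them but 1 peak on chr12 and 1 on chr19 lay in a few stretches of chr14, chr1, chr5 and chr6. Among these, several had nearly the same level at separate loci. The peaks at chr1:11907762-11908914 on the minus strand and chr1:11967774-11968923 on the plus strand had 17162 and 17196 CPM in U6. Among the 4 without overlap, those at chr1:11973393-11974193 and chr5:91140204-91140984, both on the plus strand, had 9554 and 9438 CPM in U6. Reads were allowed to map to up to 20 loci, so such peaks may share reads and are uncertain as single sites. The 4 may thus be fewer sites, and the share of the 20 may count some reads more than once. Of the 20, 2 with a steeper change are named after their values were seen. The peak at chr12:39958724-39959368 on the minus strand had 15697, 15355 and 15618 CPM in the controls and 5941, 7100 and 6359 CPM at D7 (log2 fold change −1.27 ± 0.40, adjusted p = 0.201), and its mean in control EDL was 657 CPM. The peak at chr19:56676367-56677617 on the minus strand had 44342, 39823 and 63351 against 26929, 29580 and 22512 CPM (−0.90 ± 0.35, adjusted p = 0.333).

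The tested peaks were also split by width and by level. The median log2 fold change was 0.08 in 1308 peaks of up to 100 nt, −0.04 in 7461 wider than that and under 500 nt and −0.06 in 1075 of 500 nt or more. Of these, 0, 9 and 3 were called, beside 12 of 9844 (0.122%) over all tested peaks. By mean level over the 21 soleus libraries, 3 of 4278 peaks under 10 CPM were called, 8 of 4698 with 10 to 100 CPM and 1 of 868 with 100 CPM or more. These counts are also to be read beside the 0.122% called over all tested peaks. The non-overlapping share rose with level from 17.0% through 21.4% to 30.4%, beside 20.3% of all tested peaks, while the median SE of the log2 fold change was 0.44, 0.28 and 0.30 in the same order.

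Neighbouring start sites were examined within 10000 nt on the same strand, since peaks of one gene often lie close together. Peak L had a neighbour 60 nt upstream, chr1:50446071-50446278, whose mean was 6.70 CPM in the controls and 0.662 CPM at D7 (−3.27 ± 0.76, adjusted p = 0.0777). Peak K had 8 neighbours, and in 6 of them every D7 library was below every control, as in 8.87% of all tested peaks, with log2 fold changes from −1.96 to −1.13 and none called. The other 2, 4318 nt upstream and 7264 nt downstream, were higher in level and had −0.55 ± 0.26 and −0.11 ± 0.45. Peak H had one neighbour, chr16:73674344-73675339, with 7.48 CPM in the controls and 3.29 CPM at D7, every D7 library below every control (−1.19 ± 0.44, adjusted p = 0.310). Peak C lay 1058 nt upstream of the nearest of its 3 neighbours, a start site with 96.5 CPM in the controls and 126 CPM at D7 (0.37 ± 0.29, adjusted p = 0.704). Peak G lay downstream of one with 90.8 and 114 CPM (0.33 ± 0.19, adjusted p = 0.585), and peak A of one, 2825 nt away, with 8.35 and 8.02 CPM. The D7 libraries lay above all controls in the neighbour of G and the nearest one of C, as in 11.4% of all tested peaks. They overlapped the controls in the neighbour of A. Of the peaks that were not called, N and R had one neighbour each, with changes of 1.10 ± 0.30 and −1.45 ± 0.31 (adjusted p = 0.108 and 0.0653) and no overlap between the groups. The differences between these peaks and their neighbours were not tested.

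Within a peak, the position with the most tags, the dominating CTSS, was compared between libraries as a description. In 7085 peaks with at least 20 tags in each of the 6 libraries it was the same base in all 6 in 3700 peaks (52.2%). In 26 (0.367%) each group had one position and the groups differed, 14 with the D7 position upstream and 12 downstream, and the median distance was 8.5 nt. Distances of 50 nt or more were found in 3 peaks, named for this. At chr4:100465147-100465397 on the plus strand the dominating CTSS was position 100465339 in the controls, with 51.0%, 49.8% and 53.5% of the tags, and 100465217 at D7, with 35.5%, 42.5% and 52.8%, which is 122 nt upstream. Its level was 78.3 CPM in the controls and 19.3 CPM at D7 (−2.04, adjusted p = 0.0830). At chr1:128693012-128694973 on the minus strand and chr16:2338100-2338450 on the plus strand it moved 346 and 112 nt upstream, with mean levels of 15.4 and 26.1 CPM in the controls and 10.6 and 28.9 CPM at D7. The D7 position of the chr1 peak held only 11.5%, 15% and 18.4% of 78, 80 and 38 tags in U1, U2 and U3. With 38 tags in U3 this peak does not reach a minimum of 50 tags per library. In the chr16 peak the D7 position held 19.9%, 21.5% and 25% of 156, 349 and 100 tags. Of the 20 peaks A to T, 16 had 20 tags in each library, and in 10 of these the dominating CTSS was one base throughout. In peak H it was position 73683990, with 54.1% to 60.8% of the tags in each of the 6 libraries, so that the level of this site fell while its place stayed. In peak C it was 114992689 in U6 and in the 3 D7 libraries, and 114992722 in U7 and U8.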

How the data were processed

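CAGE libraries were made by the authors with the nAnT-iCAGE protocol and read from one end; reads were trimmed with Trimmomatic, mapped to Rnor_6.0 with STAR, allowing up to 20 loci per read, and aggregated to CTSS and tag clusters (TSS peaks). The submitters' processing notes name Trimmomatic 0.38, BWA and HISAT2 as well, so the aligner behind the files is uncertain. The deposited values used here are raw counts of tags per CTSS and per TSS peak. Summed CTSS counts equalled the peak table. The deposited normalized columns were not used.

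The tests ran under R 4.3.3 in edgeR version 4.0.16 (filterByExpr, TMM, quasi-likelihood F test, Benjamini-Hochberg), all 21 soleus libraries in 1 fit of 7 groups, with the contrast D7 minus control. The filter removed 125 peaks; the median biological coefficient of variation was 0.284. The SE is the log2 fold change divided by the square root of F. The study used DESeq2, run here (1.42.0) as an alternative; its thresholds (adjusted p 0.05, 2.38-fold) were kept. The difference between the muscles was an interaction in a fit of 42 libraries. The animal number marks both muscles of 1 rat; their deviations from the group means correlated with r from −0.307 to 0.398 in the 6 control and D7 rats (−0.307 to 0.561 in all 21, over 0.1 in 15), so the fit with the animal as a block is given beside the other. Phases are different rats. The tests were tried on simulated data first. Other calculations used Python 3.11.15, pandas 2.3.3, numpy 2.4.6 and scipy 1.17.1.

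Peaks were named by rule: every called peak, then up to 10 rises and 10 falls filled with the uncalled peaks of smallest unadjusted p whose groups do not overlap and whose mean reaches 10 CPM in either group. The comparison and the rules were chosen with earlier results of these data known. Gene lists and cell type markers could not be applied, since peaks are given by position only. Every deposited peak reaches 10 TPM in some library, so weaker start sites were not analysed here.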

Additional observations from a re-analysis of the deposited data

Results flagged for a closer look

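The change after 7 days of unloading differed between soleus and EDL in 75 TSS peaks by the interaction test. Of the 12 peaks called in soleus 6 were among them, which their choice by the soleus change in part sets. Leaving out 1 library gave 29 (without the EDL control U6) to 90 calls. On the log2 scale the soleus change minus the EDL change was 2.15 in peak B and 1.93 in peak C, which rose in soleus, and −1.81 in peak I, −2.88 in peak J, −7.66 in peak K and −6.28 in peak L, which fell. Peak L had 1 to 16 tags in the EDL libraries and was not tested in EDL alone. The control libraries of both muscles were all sequenced in lane 1, the soleus D7 libraries in lane 3 and the EDL D7 libraries in lanes 3 and 6. With the lane as a block in this fit 84 peaks were called, 67 of them shared with the 75.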

How the results depend on the processing

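The 12 calls were 12 with DESeq2 size factors, without a filter on low counts and with the mitochondrial peaks kept, and 9 in libraries thinned to 4868926 tags. They were 134 with DESeq2, 28 (8 shared) with only the 6 libraries compared, 19 with the share of tags outside the peaks as a covariate (chosen after seeing the data), 15 (10 shared) in a fit of 42 libraries and 0 in that fit with the lane as a block, where 702 peaks had an unadjusted p under 0.05 and the smallest adjusted p was 0.105. They were 0 with tag totals (828 at an unadjusted p under 0.05), 1087 at an unadjusted p under 0.05 with no limit on the fold change, and 0 to 6 when 1 replicate was left out. The cause of these moves was not tested. Peaks A to T kept their direction in every fit. With the lane as a block the log2 fold changes of peaks K and I were −5.26 and −1.97 (adjusted p = 0.297 for both), and of the 20 peaks A to T 12 had a larger and 8 a smaller change than without it, the smaller ones being 1.52 in C, −0.95 in H, −1.74 in J, −4.74 in L, 0.91 in M, 0.56 in O, −1.001 in P and −0.78 in Q. The 75 peaks with a difference between the muscles, 15 higher and 60 lower in soleus, were 116 with the animal as a replicate block (22 and 94), 136 with DESeq2, 81 with tag totals (5 and 76), 52 in thinned libraries and 29 to 90 when 1 replicate was left out, the lowest without the EDL control U6 and the highest without the EDL D7 library U3. The soleus-high median of −0.27 was −0.16 with peaks from R3, −0.60 with the lane as a block, −0.12 with tag totals and −0.31 to −0.19 when 1 replicate was left out. The EDL-high median of 0.10 was −0.26 with the lane as a block, the opposite sign, 0.27 with tag totals and 0.0029 to 0.19 when 1 replicate was left out. Relative to the median of all peaks in the same fit, which tag totals moved to 0.13, these 2 medians under tag totals were −0.25 and 0.13. With a minimum of 50 tags per library in place of 20, the dominating CTSS differed between the groups in 18 of 4088 peaks in place of 26 of 7085. Peaks A, K and L rest on few tags, with 6 tags in control U7 for peak A, 5 in D7 library U3 for peak K and 1 in D7 library U1 for peak L.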
